A study of Mus musculus with 32 samples.

Results

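The 9 genes described here encode components of the central myelin sheath: Mbp, Mobp, Mog, Mag, Cnp, Mal, Cldn11, Opalin and Ermn. They were taken by name as a list of myelin genes and are 9 of the 55415 features in the count files of a mouse striatum study. All 9 passed the filter on low counts that left 10679 genes for testing. The study holds 32 libraries, each from a separately numbered mouse, with 8 libraries in each of 4 groups. Mice of 3 groups carried YAC128, a human huntingtin transgene with an expanded repeat on a yeast artificial chromosome, on a B6 background. One received AON12.1, an antisense oligonucleotide that the series title links to the caspase-6 site of HTT. One received a scrambled oligonucleotide, and one only the vehicle, artificial cerebrospinal fluid (aCSF). The fourth group was wild-type (WT) littermates given aCSF. Every mouse, controls included, had a cannula placed in the lateral ventricle at about 6 months of age and received 3 injections, the later ones 2 and 4 weeks after surgery. Each injection was 10 µL, with 500 µg of oligonucleotide in the oligonucleotide groups. Striatum was taken at 12 months, after a magnetic resonance scan. No WT group received an oligonucleotide, so an effect of AON12.1 or of the scrambled sequence can be read only on the transgenic background.

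Oligodendrocytes wrap axons in myelin, a stack of membrane layers that speeds conduction and supports the axon. Basic proteins hold the cytoplasmic faces of compact myelin together, tight junction strands seal the layers at their edges, adhesion molecules face the axon, and surface proteins cover the outside. In the striatum, myelinated fibres run mainly in bundles of cortical axons that cross between the projection neurons. In bulk tissue such as this, fewer oligodendrocytes, a different amount of fibre bundle in the sample, and less RNA per oligodendrocyte cannot be told apart. Levels are given as CPM, counts scaled to a common library size, after TMM normalization, which allows for differences in composition between libraries. Libraries were made from the 3' end of polyadenylated RNA, and levels are compared between libraries and never between genes.

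Total gene counts per library lay between 658934 and 1419313. Counts outside any annotated feature made up, on average, 23.8% ± 6.70 in AON12.1, 22.1% ± 2.41 in scrambled, 25.7% ± 4.92 in YAC128 aCSF and 19.5% ± 4.40 in WT aCSF libraries (SD, n = 8 each). Across the 32 libraries, Pearson's r between this share and a member's log2 CPM ran from -0.26 for Mbp to 0.21 for Mog, and 0 of 9 relations had an adjusted permutation p under 0.05 (smallest 0.642). One library stood apart for the myelin genes. AON12.1 replicate 2, which also had the lowest total count, reached 6980 CPM summed over the 9 genes, against at most 4236 CPM in the other AON12.1 libraries, and held the highest value of its group for every member except Mal. YAC128 aCSF replicate 2 had the lowest sum of its group, 3357 CPM. Results below are given with and without AON12.1 replicate 2 where it moves a call. The Schwann cell gene Pmp2 was at 0 in all libraries, and the Schwann cell list summed to between 22.4 and 59.9 CPM.

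**Figure D1:**
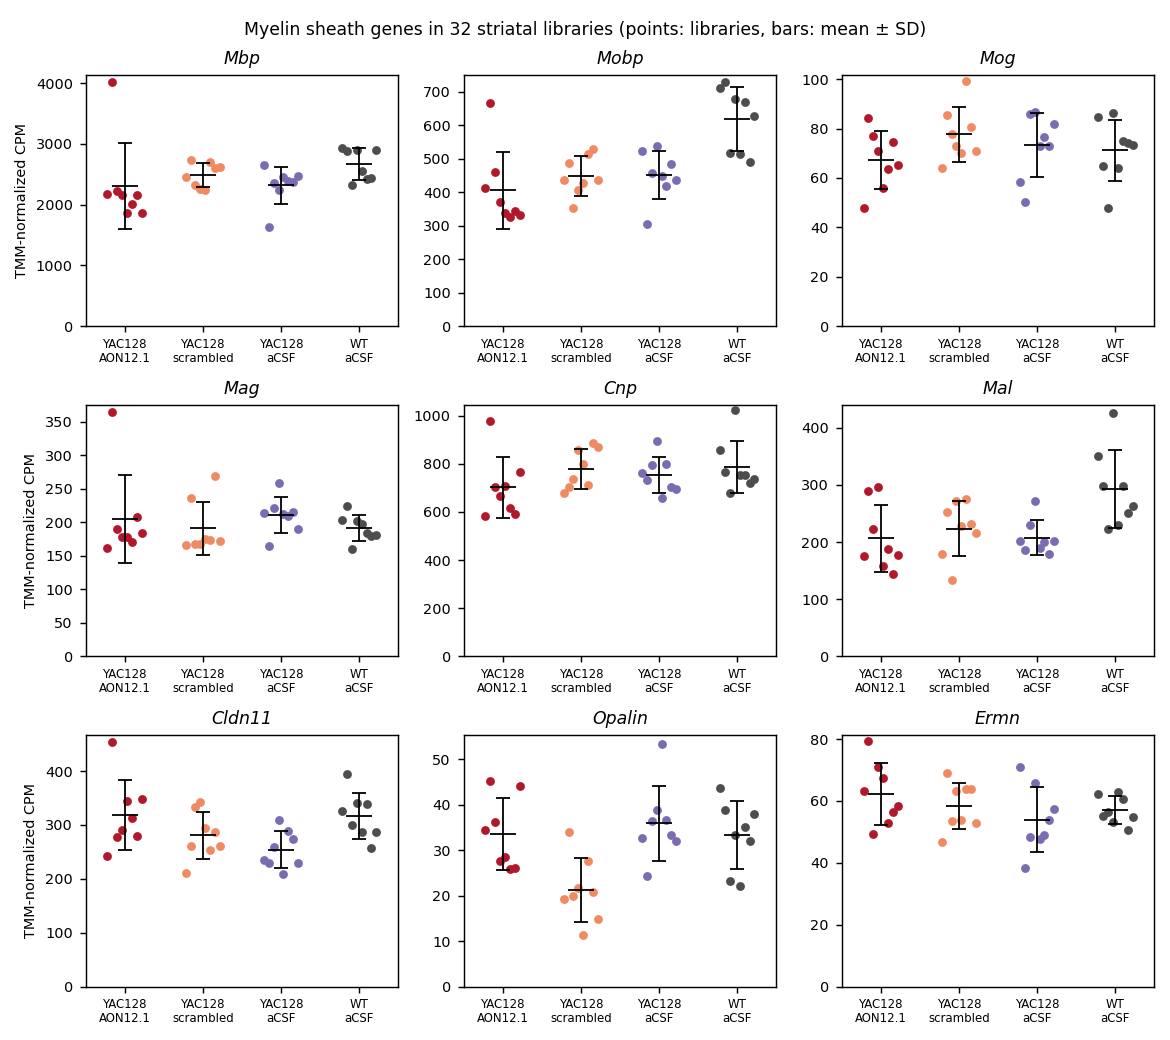
TMM-normalized CPM (vertical axes, starting at 0) of the 9 myelin genes in the 4 groups of 8 libraries (horizontal axes), with 1 point per library and bars for the mean ± SD. Mobp averaged 406 CPM in AON12.1, 448 CPM in scrambled and 451 CPM in YAC128 aCSF, against 617 CPM in WT aCSF, and AON12.1 replicate 2 stands alone at the top of its group for Mbp and Mag.

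Promoter sequence, as the 250 bases before the annotated start in RefSeq (GRCm38.p6), was at hand for 8 of the 9 genes. It is shown for the 3 members whose group levels differed most, so that the letters behind the motif counts can be read. The motifs searched, on both strands, were ACAAAG (its other strand reads CTTTGT), a core bound by SOX factors such as SOX10, and CTGGCAC (its other strand reads GTGCCAG), a core described for the myelin regulator MYRF. The windows do not depend on the counts, which the authors made on GRCm39. Mobp is at chr9:120149492-120149741 (plus strand), Mal at chr2:127656696-127656945 (minus strand) and Opalin at chr19:41077114-41077363 (minus strand). Each is written 5′ to 3′ along its gene, with matches to ACAAAG or CTTTGT in capitals.
Mobp: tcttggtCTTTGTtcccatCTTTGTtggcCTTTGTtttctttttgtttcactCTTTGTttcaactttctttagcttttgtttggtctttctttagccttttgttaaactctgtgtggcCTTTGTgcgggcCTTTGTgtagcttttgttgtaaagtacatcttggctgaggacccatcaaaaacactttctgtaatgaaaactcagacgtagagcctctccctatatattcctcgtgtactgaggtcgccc
Mal: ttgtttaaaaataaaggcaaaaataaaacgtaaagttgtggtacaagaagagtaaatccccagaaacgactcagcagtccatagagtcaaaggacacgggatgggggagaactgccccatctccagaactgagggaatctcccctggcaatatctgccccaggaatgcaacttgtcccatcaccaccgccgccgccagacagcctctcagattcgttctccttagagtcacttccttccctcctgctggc
Opalin: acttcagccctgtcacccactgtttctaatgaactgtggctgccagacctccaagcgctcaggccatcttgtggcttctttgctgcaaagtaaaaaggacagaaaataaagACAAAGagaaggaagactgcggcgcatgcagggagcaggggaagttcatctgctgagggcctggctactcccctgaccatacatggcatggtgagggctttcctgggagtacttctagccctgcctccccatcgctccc

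The Mobp window held 6 SOX core matches, all read as CTTTGT, the only 1 of 32851 windows with that many. At least 1 match occurred in 16.5% of all windows, at least 2 in 1.74% and at least 4 in 7 windows. The Opalin window held 1 match and the Mal window none. Among the other members, Cnp had 1 SOX and 1 MYRF match, Mag had 1 of each in 2 of its 3 annotated windows, and Mog, Cldn11 and Ermn had none. A MYRF match occurred in 4.19% of all windows. These matches describe the letters in the windows and not binding.

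Mobp encodes a small basic protein of the cytoplasmic face of compact central myelin. It was the member whose level differed most clearly between the groups. Its lowest, median and highest values were 326, 358 and 667 CPM with AON12.1, 352, 435 and 529.5 CPM with scrambled, 305, 453 and 537 CPM in YAC128 aCSF, and 491, 648 and 729 CPM in WT aCSF. All AON12.1 libraries but replicate 2 lay below the lowest WT library, as did 6 of 8 scrambled and 6 of 8 YAC128 aCSF libraries. No YAC128 library of any treatment exceeded the WT maximum, and 1 of the 24 exceeded the WT median.

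Mobp fell in AON12.1-treated YAC128 mice relative to WT aCSF mice, to 406 ± 115 CPM against 617 ± 95.7 CPM (SD, n = 8 each). The log2 fold change was -0.61 ± 0.12 (SE), a ratio of 0.655 with a 95% interval from 0.550 to 0.780, and the adjusted p from edgeR's quasi-likelihood test was 0.00783. It was the 1 member of 9 called in this comparison, in which 0.562% of all tested genes were called, and 0.328% were called lower. At an unadjusted p under 0.05, 2 of 9 were lower (Mobp and Mal), against 7.09% of all genes. Leaving out each of the 16 libraries in turn kept the call, with log2 fold changes between -0.74 and -0.57. Without AON12.1 replicate 2, Mbp was called too, at a log2 fold change of -0.38 (adjusted p = 0.0213, edgeR). Within the animals numbered from 18 (2 AON12.1 and 3 WT libraries) Mobp was at -0.27 with an adjusted p of 0.727, and within those numbered from 19 (6 and 5 libraries) at -0.72 with an adjusted p of 0.00306 (edgeR). Among libraries with a no-feature share of at most 25% (5 and 7) it was -0.54 and missed the threshold (adjusted p = 0.12, edgeR). Over all alternatives to this comparison the adjusted p for Mobp ran from 0.000123 to 0.727.

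In the scrambled group Mobp averaged 448 ± 58.9 CPM and in the YAC128 aCSF group 451 ± 71.9 CPM (SD, n = 8 each), against the same WT libraries. The log2 fold changes were -0.46 ± 0.12 for scrambled (adjusted p = 0.126) and -0.45 ± 0.12 for aCSF (adjusted p = 0.15, both edgeR), and neither passed the test over all genes. These comparisons share the WT group, so their likeness is not separate evidence. With DESeq2 the aCSF comparison gave an adjusted p of 0.0199 for Mobp, the lowest over its alternatives, which reached 0.872. Between the 3 YAC128 groups, Mobp differed by -0.15 ± 0.12 for AON12.1 against scrambled, -0.16 ± 0.12 for AON12.1 against aCSF and -0.01 ± 0.12 for scrambled against aCSF on the log2 scale. For AON12.1 over scrambled, the ratio had a 95% interval of 0.757 to 1.07. The order of the group means was AON12.1, scrambled, YAC128 aCSF and WT aCSF, with the first 3 within their spread of each other.

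The mean of the 3 YAC128 groups was set against WT in a contrast added after earlier results of these data were known. Mobp averaged 435 CPM over 24 YAC128 libraries, against 617 CPM over 8 WT libraries. It fell by 0.51 ± 0.10 on the log2 scale (ratio 0.703, 95% interval 0.612 to 0.807, adjusted p = 0.00848 by edgeR's quasi-likelihood test) and ranked 10 by p among all genes. It was the 1 member of 9 called, against 0.234% of all tested genes, or 0.14% called lower. At an unadjusted p under 0.05, 2 of 9 were lower (Mobp and Mal), against 6.79% of all genes. Of the YAC128 libraries, 19 of 24 lay below the lowest WT library. The call held in all 32 fits that left out a library. In the animals numbered from 18 the value was -0.42 (adjusted p = 0.661) and in those numbered from 19 it was -0.52 (adjusted p = 0.021, both edgeR). Among libraries with a no-feature share of at most 25% it was -0.44 and missed the threshold (adjusted p = 0.154, edgeR). That subset held 5 AON12.1, 7 scrambled, 3 YAC128 aCSF and 7 WT libraries. Over all alternatives the adjusted p ran from 0.000194 to 0.661. In the test for any difference among the 4 groups Mobp was again the 1 member called (adjusted p = 0.0199, edgeR), against 0.777% of all genes, and it was not called there in the animals numbered from 18 or at a no-feature share of at most 25%.

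**Figure D2:**
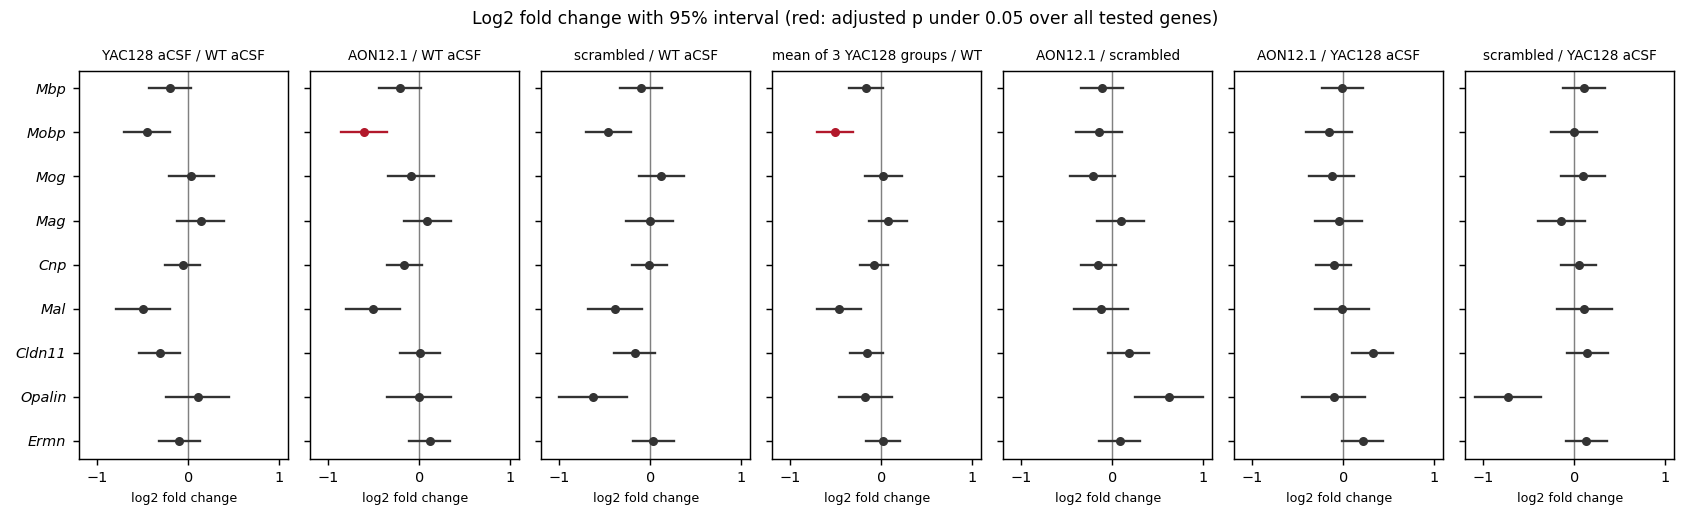
Log2 fold change (horizontal axes, 95% interval) of the 9 members (rows) in each comparison (panels), with values called at an adjusted p under 0.05 over all tested genes in red. Mobp is red at -0.61 for AON12.1 against WT and at -0.51 for the mean of the YAC128 groups against WT, and its points for the other comparisons with WT lie at -0.46 and -0.45 in grey.

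Mbp encodes myelin basic protein, the main protein that holds the cytoplasmic faces of the sheath together. Its lowest, median and highest values were 1853, 2156 and 4018 CPM with AON12.1, 2239, 2533 and 2730.4 CPM with scrambled, 1624, 2376 and 2647 CPM in YAC128 aCSF and 2322, 2719 and 2939 CPM in WT aCSF. Of the 8 AON12.1 libraries, 7 lay below the lowest scrambled and the lowest WT library, and replicate 2, at 4018 CPM, lay above both groups. How many of all genes separate in this way was not counted. For AON12.1 against scrambled, Mbp was at -0.11 ± 0.11 (adjusted p = 0.891, edgeR). It was called there in 0 of 16 fits with a library left out, with a lowest adjusted p of 0.352 (edgeR). With every library in the fit, Mbp was at -0.21 ± 0.11 for AON12.1 against WT (adjusted p = 0.388), -0.10 for scrambled against WT (adjusted p = 0.808) and -0.20 ± 0.11 for YAC128 aCSF against WT (adjusted p = 0.459, all edgeR), and none passed the test. For AON12.1 against WT the value was 0.20 in the animals numbered from 18 (adjusted p = 0.8), where replicate 2 is 1 of 2 AON12.1 libraries, and -0.37 in those numbered from 19 (adjusted p = 0.066, both edgeR). The adjusted p ran from 0.0213 to 0.802 over the alternatives to that comparison.

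Mobp and Mbp moved together between libraries, but their ratio also differed between groups. For every 100 Mbp counts there were 17.7 ± 1.59 Mobp counts in AON12.1, 18.0 ± 1.57 in scrambled, 19.5 ± 2.04 in YAC128 aCSF and 23.1 ± 2.59 in WT aCSF libraries (SD, n = 8 each). The AON12.1 values ran from 16.0 to 20.8, the scrambled from 15.2 to 20.3, the YAC128 aCSF from 17.6 to 23.9 and the WT from 20.1 to 27.7. AON12.1 replicate 2, far above its group in both genes, had 16.6 by this measure, inside its group's range. Ratios of other members to Mbp differed between groups too, in either direction. Mag counts per 100 Mbp counts averaged 8.89 ± 0.82 in AON12.1, 7.66 ± 1.31 in scrambled and 9.16 ± 1.20 in YAC128 aCSF, against 7.18 ± 0.51 in WT aCSF libraries. Opalin averaged 0.84 ± 0.24 in scrambled against 1.24 ± 0.22 in WT aCSF libraries. These ratios are descriptions, chosen after the levels were seen, and were not tested.

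**Figure D3:**
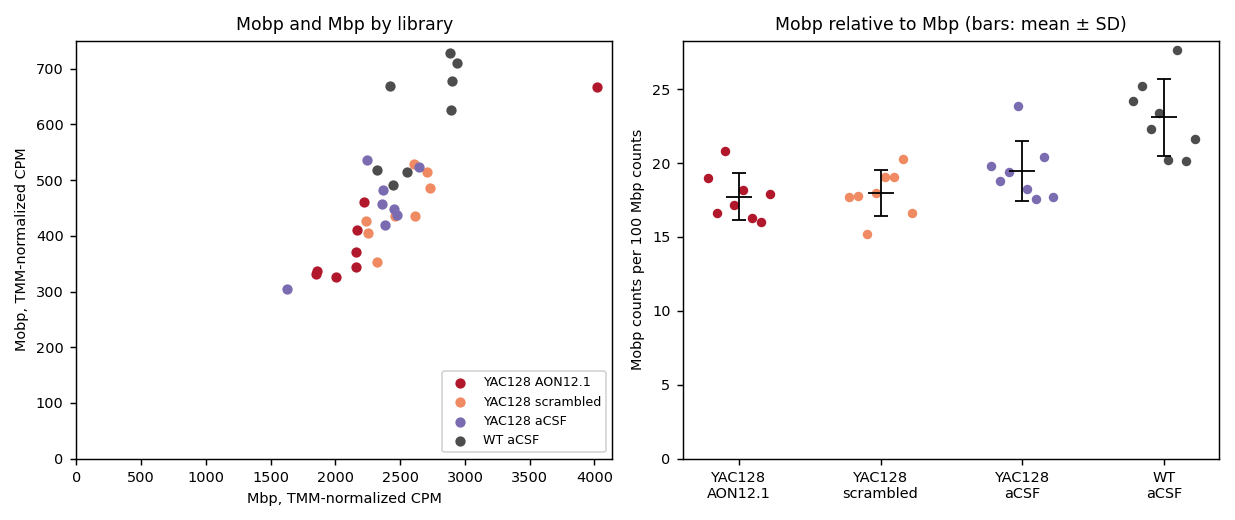
Left, Mobp against Mbp in each of 32 libraries, both in TMM-normalized CPM; right, Mobp counts per 100 Mbp counts by group, with bars for the mean ± SD of 8 libraries. On the right the averages are 17.7 in AON12.1, 18.0 in scrambled and 19.5 in YAC128 aCSF, against 23.1 in WT aCSF.

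Mal encodes a raft-associated proteolipid that takes part in sorting membrane to the sheath. Its lowest, median and highest values were 144, 182 and 297 CPM with AON12.1, 134, 230.4 and 275 CPM with scrambled, 179, 201 and 272 CPM in YAC128 aCSF and 223, 280.3 and 426 CPM in WT aCSF. The groups overlapped, with 6 of 8 AON12.1, 3 of 8 scrambled and 6 of 8 YAC128 aCSF libraries below the lowest WT library. The log2 fold changes against WT were -0.51 ± 0.15 for AON12.1 (adjusted p = 0.0961), -0.39 ± 0.15 for scrambled (adjusted p = 0.369) and -0.50 ± 0.15 for aCSF (adjusted p = 0.172, all edgeR). The mean of the YAC128 groups was at -0.47 ± 0.12 (adjusted p = 0.0691, edgeR), or 212 CPM against 292 CPM in WT. Mal was thus not called, but it lay near the threshold. Without AON12.1 replicate 4, its highest library in that group, it passed for AON12.1 against WT at -0.61 (adjusted p = 0.0364) and for the mean of the YAC128 groups at -0.49 (adjusted p = 0.0354). Without AON12.1 replicate 2 it passed for the mean of the YAC128 groups at -0.49 (adjusted p = 0.0441, all edgeR). That mean was at -0.37 in the animals numbered from 18 (adjusted p = 0.686) and at -0.52 in those numbered from 19 (adjusted p = 0.224, both edgeR), and over all its alternatives the adjusted p ran from 0.0201 to 0.686.

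Cldn11 encodes the claudin of the tight junction strands between myelin layers. Its lowest, median and highest values were 242, 302 and 455 CPM with AON12.1, 211, 275 and 343 CPM with scrambled, 209.7, 247 and 309.9 CPM in YAC128 aCSF and 258, 312 and 395 CPM in WT aCSF. The YAC128 aCSF group sat lowest, with 4 of its 8 libraries below the WT minimum and 4 of 8 AON12.1 libraries above its maximum. The log2 fold change was -0.32 ± 0.11 for YAC128 aCSF against WT (adjusted p = 0.229), 0.32 ± 0.11 for AON12.1 against aCSF (adjusted p = 0.21) and 0.01 for AON12.1 against WT (adjusted p = 0.991, all edgeR). None passed the test, and the first 2 values share the YAC128 aCSF libraries. For YAC128 aCSF against WT the value was -0.38 in the animals numbered from 18 and -0.27 in those numbered from 19.

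Opalin encodes an oligodendrocyte membrane sialoglycoprotein and was counted sparsely, at 9 to 49 counts per library. Its lowest, median and highest values were 25.8, 31.4 and 45.3 CPM with AON12.1, 11.2, 20.4 and 33.9 CPM with scrambled, 24.4, 34.9 and 53.2 CPM in YAC128 aCSF and 22.1, 34.2 and 43.6 CPM in WT aCSF. Opalin was lowest in the scrambled group, where 6 of 8 libraries lay below the YAC128 aCSF minimum and 6 of 8 below the WT minimum. All 8 AON12.1 libraries exceeded the scrambled median, and 4 exceeded its maximum. The log2 fold change was 0.62 ± 0.18 for AON12.1 against scrambled (adjusted p = 0.335), -0.73 ± 0.18 for scrambled against aCSF (adjusted p = 0.156) and -0.63 ± 0.18 for scrambled against WT (adjusted p = 0.191, all edgeR). None passed the test, and all 3 rest on the same scrambled libraries. Without scrambled replicate 2, the highest of its group, Opalin passed for scrambled against aCSF at -0.86 (adjusted p = 0.0497, edgeR), the lowest over its alternatives, which reached 0.796. In the animals numbered from 18 (2 scrambled and 4 aCSF libraries) that value was -0.31, and in those numbered from 19 (6 and 4) it was -0.96.

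Mag, an adhesion molecule of the membrane that faces the axon, and Mog, an immunoglobulin-like protein of the outer surface, showed no group shift that passed the test. Mag averaged 204 ± 65.9 CPM in AON12.1, 191 ± 39.4 CPM in scrambled, 211 ± 26.6 CPM in YAC128 aCSF and 191 ± 19.5 CPM in WT aCSF mice (SD, n = 8 each). Mog averaged 67.4 ± 11.8 CPM in AON12.1, 77.6 ± 11.0 CPM in scrambled, 73.2 ± 12.9 CPM in YAC128 aCSF and 71.2 ± 12.4 CPM in WT aCSF mice. For the mean of the YAC128 groups against WT, the 95% interval of the ratio ran from 0.908 to 1.22 for Mag and from 0.880 to 1.17 for Mog. A decrease of the size measured for Mobp, a ratio of 0.703, lies outside both intervals.

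Cnp, a cyclic nucleotide phosphodiesterase of the cytoplasmic channels of myelin, averaged 702 ± 128 CPM in AON12.1, 780.3 ± 83.2 CPM in scrambled, 755 ± 74.9 CPM in YAC128 aCSF and 787 ± 108 CPM in WT aCSF mice (SD, n = 8 each). Its gene overlaps Dnajc7 on the opposite strand, which had 4071 counts over all libraries, against 22635 for Cnp, and no source used here says whether counting used strand, so the Cnp level is uncertain to that extent. Ermn, a cytoskeletal protein of late oligodendrocytes that binds actin, averaged 62.2 ± 9.98 CPM in AON12.1, 58.4 ± 7.56 CPM in scrambled, 53.9 ± 10.6 CPM in YAC128 aCSF and 57.0 ± 4.51 CPM in WT aCSF mice. The 95% interval of the ratio of the YAC128 mean to WT ran from 0.849 to 1.05 for Cnp and from 0.889 to 1.15 for Ermn. Neither gene passed the test in any comparison.

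Counted over the 9 members, the remaining comparisons gave no calls by edgeR with every library in the fit. For YAC128 aCSF against WT, edgeR's quasi-likelihood test called 0 of 9 (0.0749% of all tested genes), limma voom called 0 and DESeq2 called 2, Mobp and Mal. Over all genes, edgeR called 8 as reported, and the alternatives to this comparison, DESeq2 among them, called between 1 and 54. DESeq2's own share of all genes is not given here, so its 2 calls cannot be set against it. At an unadjusted p under 0.05, 3 of 9 were lower (Mobp, Mal and Cldn11), against 5.76% of all genes, and the median log2 fold change was -0.10. For scrambled against WT, edgeR called 0 of 9 (0.169% of all genes), as did limma voom and DESeq2, and 3 of 9 were lower at an unadjusted p under 0.05 (Mobp, Mal and Opalin), against 5.01%. For AON12.1 against scrambled, edgeR, limma voom and DESeq2 called 0 of 9 (0.14% of all genes by edgeR), with 1 member higher at an unadjusted p under 0.05 (Opalin, 3.39% of all genes). For AON12.1 against aCSF, the 3 tools called 0 of 9 (0.309% of all genes by edgeR), with 1 higher unadjusted (Cldn11, 6.53%). For scrambled against aCSF, they called 0 of 9 (0.0843%), with 1 lower unadjusted (Opalin, 4.33%), and DESeq2 gave Opalin no adjusted p there.

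Summed levels of other cell types were set beside the Mobp result. The astrocyte list (14 of 14 genes tested) summed to 5015 to 5885 CPM in AON12.1, 5193 to 6232 CPM in scrambled, 4934 to 5722 CPM in YAC128 aCSF and 5683 to 6404 CPM in WT aCSF libraries. Its median was 5358 CPM in AON12.1, 5533 CPM in scrambled and 5167 CPM in YAC128 aCSF, each below the lowest WT library. Of the 14 genes 1, Aldoc, was called lower for the mean of the YAC128 groups against WT (-0.28 ± 0.06, adjusted p = 0.0284, edgeR). In that contrast 9 of the 14 were lower and 5 higher, with log2 fold changes from -0.36 to 0.25. For AON12.1 against aCSF 1 of the 14 was called higher and 0 lower, against 23 called higher of all 10679 tested genes. The striatal projection neuron list (18 of 18 tested) summed to 8128 to 14225 CPM in AON12.1, 4701 to 10696 CPM in scrambled, 4597 to 9421 CPM in YAC128 aCSF and 6927 to 14546 CPM in WT aCSF libraries. The part of these differences in the Mobp result was not tested. With scores for cortical neurons and choroid plexus as covariates, Mobp was at -0.61 for AON12.1 against WT (adjusted p = 0.00563, edgeR). Those scores hold no astrocyte, projection neuron or oligodendrocyte list. YAC128 aCSF replicate 4, the highest of its group for Mobp, Mog, Mag, Cnp, Mal and Cldn11, also had the highest choroid plexus sum, 3421 CPM, against at most 207 CPM in any other library.

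The members varied together between libraries within groups. With each group's mean removed from log2 CPM, all 36 pairs had a positive Pearson's r over the 32 libraries, with a median of 0.492 and a range from 0.173 for Cnp with Opalin to 0.847 for Mbp with Mobp. For Mbp with Mobp, rho was 0.754 (adjusted permutation p = 0.00054 for r and 0.00036 for rho over the 36 pairs), and r was 0.707 without the 2 libraries farthest from the median of Mbp. An adjusted permutation p under 0.05 was reached by 24 pairs for r, 19 for rho and 18 for both. Pairs of other genes were not counted in this way. Within single groups of 8 libraries, 36 of 36 pairs were positive in AON12.1, 28 in scrambled, 33 in YAC128 aCSF and 31 in WT aCSF. The lowest r of a pair was -0.576, in scrambled. The shared variation of the members leaned on a few libraries. Without AON12.1 replicate 2 the median r was 0.347, and 35 of 36 pairs stayed positive. In the 11 libraries from animals numbered from 18 the median r was 0.717, or 0.658 without AON12.1 replicate 2, while in the 21 numbered from 19 it was 0.169, with 26 of 36 pairs positive. Mobp followed the mean of the other members most closely (r = 0.822), then Mag (0.803) and Mbp (0.747), and Cldn11 (0.50) and Opalin (0.505) least. Counting error alone would give a coefficient of variation of 19.9% for Opalin and 13.9% for Ermn, where 30.2% and 14.9% were measured, and of 2.13% for Mbp, where 17.4% was measured.

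**Figure D4:**
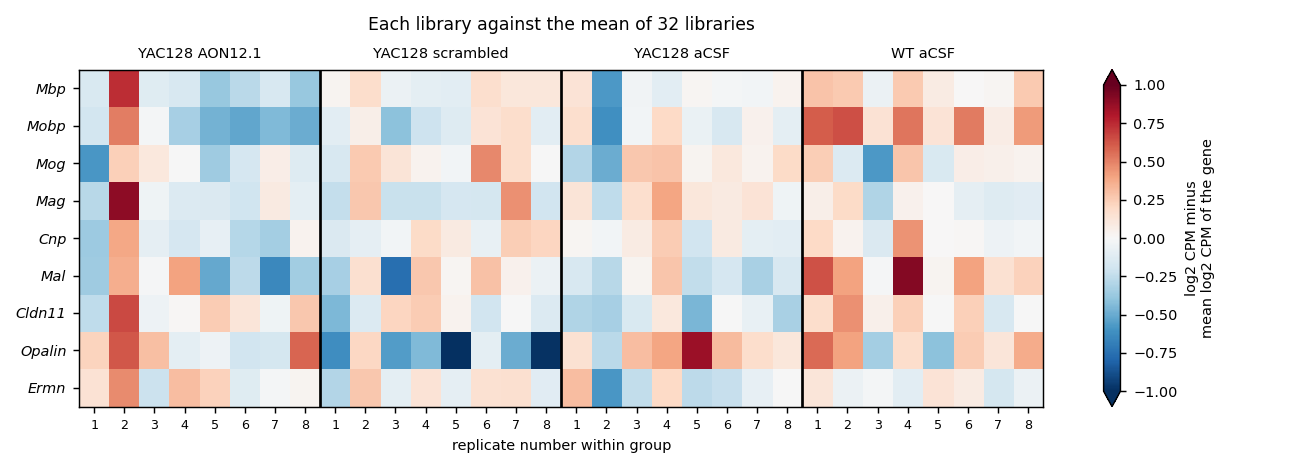
Log2 CPM of each member (rows) in each of 32 libraries (columns, grouped), minus the gene's mean over all libraries, with red above and blue below it. AON12.1 replicate 2 is red in all rows, YAC128 aCSF replicate 2 is blue in all rows but Cnp, which is near 0, the Mobp row is red throughout WT, and the Opalin row is blue in most scrambled libraries.

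**Figure D5:**
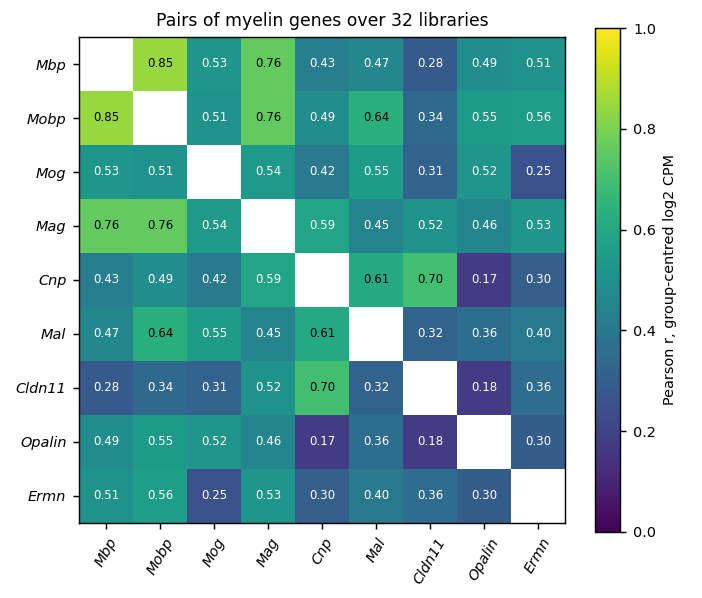
Pearson's r of group-centred log2 CPM for each of the 36 pairs of members over 32 libraries (rows and columns are genes, colour runs from 0 to 1). Mbp, Mobp and Mag form the brightest block, with 0.85 for Mbp with Mobp, and Opalin with Cnp is lowest at 0.17.

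Among tested genes outside the list, those whose group-centred log2 CPM followed the members' mean closely over the 32 libraries included Sept4 (r = 0.754), a septin, Apod (0.747), a lipid carrier, Il33 (0.745), a nuclear cytokine, and Plekhb1 (0.720). These are descriptions over libraries that share depth and dissection, ranked over all tested genes. Il33 fell in YAC128 aCSF mice to 36.1 ± 9.48 CPM, against 61.1 ± 11.2 CPM in WT aCSF mice (-0.78 ± 0.16, adjusted p = 0.0358, edgeR). Apod rose with AON12.1 to 517 ± 124 CPM, against 353 ± 44.0 CPM in YAC128 aCSF (0.55 ± 0.11, adjusted p = 0.00825) and against 319.6 ± 61.3 CPM in WT aCSF mice (0.69 ± 0.11, adjusted p = 0.000539, both edgeR). In scrambled mice Apod averaged 425 ± 31.3 CPM, and AON12.1 against scrambled was not called (0.28 ± 0.11, adjusted p = 0.525), nor was scrambled against aCSF (0.27 ± 0.11, adjusted p = 0.421) or against WT (0.41 ± 0.11, adjusted p = 0.132, all edgeR).

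Of a wider list of 43 tested oligodendrocyte and myelin genes outside the 9, none was called for YAC128 aCSF against WT by edgeR (6 higher and 4 lower at an unadjusted p under 0.05, against 725 higher and 615 lower of all 10679 tested genes), and their median log2 fold change was 0.01. For AON12.1 against WT, 2 were called higher (Gsn and Apod) and none lower, against 25 higher and 35 lower of all tested genes. For scrambled against WT, 1 was called lower, against 14 higher and 4 lower of all tested genes. It was Qdpr, a pteridine reductase, at 218 ± 26.1 CPM against 343 ± 18.9 CPM in WT (-0.65 ± 0.09, adjusted p = 3.97e-05, edgeR). For the mean of the YAC128 groups against WT, Apod was called higher and Qdpr lower, against 10 higher and 15 lower of all tested genes. For AON12.1 against scrambled, 3 were called higher, Trf, Qdpr and Gsn, and none lower, against 10 higher and 5 lower of all tested genes. For AON12.1 against aCSF, 2 were called higher, Gsn and Apod, and none lower, against 23 higher and 10 lower of all tested genes. Gsn, an actin-severing protein, averaged 99.1 ± 25.5 CPM in AON12.1 mice, against 63.1 ± 11.5 CPM in YAC128 aCSF mice (0.64 ± 0.13, adjusted p = 0.00937, edgeR). For scrambled against aCSF, 0 were called by edgeR, with 2 higher and 4 lower at an unadjusted p under 0.05, against 588 higher and 462 lower of all tested genes. Of 10 tested transcription factors of the lineage none was called in any comparison by edgeR, and for AON12.1 against WT 4 were higher and 0 lower at an unadjusted p under 0.05, against 789 higher and 757 lower of all 10679 tested genes. Sox10, which drives myelin genes, averaged 111 ± 18.4 CPM in AON12.1, 90.2 ± 11.2 CPM in scrambled, 98.6 ± 8.41 CPM in YAC128 aCSF and 88.5 ± 14.5 CPM in WT aCSF mice (SD, n = 8 each). Olig1, a bHLH factor of the lineage, averaged 239 ± 21.0 CPM in AON12.1, 274 ± 33.0 CPM in scrambled, 272 ± 29.4 CPM in YAC128 aCSF and 264 ± 42.1 CPM in WT aCSF mice. Of 14 tested genes of precursors and newly formed oligodendrocytes, Enpp6, a choline phosphodiesterase, was called higher than WT in each YAC128 group. It averaged 36.9 ± 6.34 CPM in AON12.1, 41.7 ± 9.98 CPM in scrambled and 34.7 ± 6.88 CPM in YAC128 aCSF mice, against 16.6 ± 6.30 CPM in WT aCSF mice (SD, n = 8 each). Pdgfra, a growth factor receptor of precursors, and Cspg4, a proteoglycan on their surface, were not called. Of all 10679 tested genes, 25 were called higher than WT for AON12.1, 14 for scrambled and 4 for YAC128 aCSF. For the mean of the YAC128 groups, 8 of the 14 listed genes were higher than WT and 6 lower. Their median log2 fold change was 0.01, with values from -0.64 for Tcf7l2, which was not called, to 1.19 for Enpp6.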

How the data were processed

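The deposited files, 1 per library, give raw whole-number counts for each gene, which the authors had not normalized. Per the labels' protocols, 100 ng of total striatal RNA was reverse transcribed with barcoded oligo-dT primers that carry a molecular identifier (mcSCRB-seq, modified). Per the submitters' processing notes, FastQC, cutadapt 2.10, STAR 2.7.5a, HTSeq 0.12.4 and GRCm39 were used. Collapsing by molecular identifier and strand use in counting are not given in the sources used here. The 5 summary lines of each file stayed out of library sizes and tests. Ambiguous counts made up 1.59% and multiply aligned counts 8.80%. Ensembl identifiers were matched to names in a GRCm38 annotation (52081 features with 99.8% of the counts).

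The analysis used edgeR 4.0.16 in R 4.3.3, with the filterByExpr filter (minimum count 10, minimum total 15). The 32 libraries entered 1 TMM-normalized quasi-likelihood fit with a coefficient per group, and comparisons are contrasts of it, given as log2 fold change ± SE. A gene was called at a Benjamini-Hochberg adjusted p under 0.05 over all 10679 tested genes. The fit was also run on simulated counts with known changes, drawn separately for each gene, and its outcome is not given here. Common biological variation was 0.167, and log2 fold changes between genotypes had a median SE of 0.159. Correlations use log2 CPM and 100000 two-sided permutations. Alternatives used DESeq2 1.42.0, limma 3.58.1 (voom), other scalings, filters and covariates, and left-out libraries. Libraries are numbered in accession order, so a number names a library and pairs none. The labels number the animals, and p-values here measure the spread between those animals. The first 2 digits of that number (18 or 19) define the 2 series used for within-series values, and what they stand for is not given. The members, the gene lists and the rule for named genes (all members, the 5 genes most alike, and from each list the called genes or else the most abundant and the one with the smallest p) were chosen with earlier results of these data known. Pdgfra, Cspg4 and Aldoc were named outside that rule. One gene that the rule names is not reported here.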

Additional observations from a re-analysis of the deposited data

Results flagged for a closer look

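Within each group of 8 libraries, a member was marked where its highest or lowest value was separated from the nearest other by a larger part of the group's range than Dixon's 95% limit for 8 values allows. Of 36 groups (9 genes in 4 groups), 5 were marked, and chance marks about 1 in 20 groups. The members move together between libraries, so marks in the same library are not separate events. AON12.1 replicate 2 was marked for 4 genes. Its Mbp value was 4018 CPM, against 2217 CPM in the next AON12.1 library. Its Mobp value was 667 CPM, against 461 CPM in the next library. Its Mag value was 364 CPM, against 208 CPM in the next library. Its Cnp value was 977 CPM, against 768 CPM in the next library. This library had 658934 gene counts and a no-feature share of 17.5%, the lowest of its group for both. YAC128 aCSF replicate 2 was marked for Mbp, at 1624 CPM, against 2246 CPM in the next lowest library of that group.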

How the results depend on the processing

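Of the 9 members, 1 was called for AON12.1 against WT. The number of members called was 2 when the no-feature share was a covariate (Mobp and Mal), 0 in animals numbered from 18 and 0 where that share was at most 25%, and between 1 and 2 when a library was left out. For the mean of the YAC128 groups against WT, the members called were 1 in the reported fit, 2 without a filter, 2 when the no-feature share was a covariate, 2 with cortex and choroid plexus scores, 2 with DESeq2, 0 in animals numbered from 18, 0 at a share up to 25%, and between 1 and 2 when a library was left out. The second member was Mal in each, except without AON12.1 replicate 2, where it was Mbp for AON12.1 against WT. For the test over 4 groups, members called were 1 as reported, 0 in animals numbered from 18 and 0 at a share up to 25%. For YAC128 aCSF against WT, members called were 0 as reported, 2 with DESeq2, and 0 in every fit with a library left out. For scrambled against aCSF, members called were 0 as reported and between 0 and 1 with a library left out, the 1 being Opalin without scrambled replicate 2. The cause of these moves was not tested, and the subsets also held fewer libraries.

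Mobp kept its negative sign for AON12.1 against WT in every alternative run, with log2 fold changes from -0.72 to -0.27 in the 13 that left out no single library and from -0.74 to -0.57 in the 16 fits that did. It was called in 11 of 13 alternatives and in 16 of 16 fits with a library left out. Over all genes, calls for AON12.1 against WT numbered 60 as reported and 3 to 104 across alternatives, for YAC128 aCSF against WT 8 and 1 to 54 (3 to 142 with a library left out), for AON12.1 against aCSF 33 and 2 to 276, for AON12.1 against scrambled 15 and 1 to 20, for scrambled against aCSF 9 and 1 to 23, for scrambled against WT 18 and 3 to 39, for the mean of the YAC128 groups against WT 25 and 2 to 74, and for the 4 groups 83 and 13 to 129. The stricter filter removed Opalin. A fit with only the groups compared was not run for the mean of the YAC128 groups. No paired analysis was possible because the labels give animal numbers that no 2 groups share. Depth limits Opalin most, at 9 to 49 counts per library.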

Other observations

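Genes for myelin lipids and for the axonal side of the myelinated fibre were looked at beside the sheath genes. Of 25 tested genes of cholesterol, fatty acid and glycosphingolipid synthesis, 0 were called by edgeR's quasi-likelihood test in any comparison, and for the mean of the YAC128 groups against WT 1 was higher and 2 lower at an unadjusted p under 0.05, against 719 higher and 725 lower of all 10679 tested genes. Scd2, a fatty acid desaturase, averaged 717 ± 96.9 CPM in AON12.1, 714 ± 33.1 CPM in scrambled, 715 ± 51.1 CPM in YAC128 aCSF and 780.3 ± 99.6 CPM in WT aCSF mice (SD, n = 8 each). For YAC128 aCSF against WT, the smallest p of the list belonged to Ugt8a, which makes the galactolipid of myelin, at -0.38 on the log2 scale (adjusted p = 0.392, edgeR). Of 14 tested genes of the node and paranode, 0 were called by edgeR in any comparison. For the mean of the YAC128 groups against WT, 0 had an unadjusted p under 0.05 and their log2 fold changes lay between -0.09 and 0.15, with a median of 0.00. Cntn2, an adhesion molecule beside the paranode, was at 0.28 for YAC128 aCSF against WT (adjusted p = 0.364, edgeR).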
